A study of Homo sapiens with 18 samples.

Results

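The 39 genes described here belong to the unfolded protein response and the integrated stress response, and were taken by name from the 62703 genes measured in MDA-MB-231 cells. They were read as an ATF4 arm of 23 genes, an endoplasmic reticulum (ER) chaperone arm of 12 genes, and a group of 4 genes that holds the 3 ER stress sensors (ATF6, EIF2AK3, ERN1) and the transcription factor gene XBP1. MDA-MB-231 is a long-established line that stands for triple-negative breast cancer. The files hold 10 distinct libraries of polyadenylated RNA in 5 groups of 2. In the knockdown experiment, cells were exposed for 24 h to lentivirus that carried a hairpin (control shRNA, shEZH2 or shE2F1) and were then kept for 72 h in puromycin at 2 µg/ml, so that the control cells were transduced and selected as well. The study lists 1 hairpin sequence per target, so that a change particular to a hairpin cannot be told apart from depletion of its target. In the drug experiment, for which the labels name neither virus nor puromycin, cells were kept for 72 h in DMSO or in GSK126 at 1 µM. GSK126 competes with the methyl donor of EZH2, the catalytic subunit of Polycomb repressive complex 2, while E2F1 activates genes of the cell cycle. The labels do not say whether replicates came from separate cultures, so that p-values measure the spread between libraries, which may be technical.

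Unfolded protein in the ER is sensed by 3 membrane proteins. EIF2AK3 (PERK) phosphorylates the initiation factor eIF2alpha, which lowers translation in general and raises translation of ATF4, and the same step can be reached from amino acid shortage, haem shortage or double-stranded RNA through other kinases, which is why this branch is called the integrated stress response. ERN1 (IRE1) splices the XBP1 transcript, and ATF6 is cut in the Golgi to release a transcription factor. ATF4 and its partners drive genes of amino acid synthesis, amino acid transport and tRNA charging, and in prolonged stress DDIT3 (CHOP). XBP1 and ATF6 drive chaperones, disulfide isomerases and the genes that remove misfolded protein. Translation of ATF4, splicing of XBP1 and cleavage of ATF6 leave the level of their transcripts open, and none of them was measured here.

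Promoter sequence was examined first, because the arms are defined in part by the elements that their factors bind. RefSeq promoters of 300 bases (250 before and 50 after the start, GRCh38.p14) were found for 35 of the 39 genes. The ER stress response element (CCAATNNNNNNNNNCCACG, both strands) was in 0.0769% of the 35116 promoters of the table. It was in the promoters of 4 of the 12 ER chaperone genes (HSPA5, HSP90B1, PDIA6 and CRELD2) and of XBP1, and in none of the 19 ATF4 arm genes with a promoter. The related element II (ATTGGNCCACG) was in 0.0541% of all promoters and in those of HYOU1, HERPUD1 and SDF2L1. PDIA4, DNAJB9 and EDEM1, whose changes are also given below, held neither element. Sites are shown because HSPA5, HSP90B1 and HYOU1 are among the ER chaperone genes that were lower in shE2F1 below. The genes shown were thus picked with their changes known, and the sites of CRELD2 and SDF2L1 are not shown. The element is in capitals and 5 flanking bases are in lower case, 5′ to 3′ on the strand of the gene.
HSPA5, chr9:125241386-125241414, gene on the minus strand: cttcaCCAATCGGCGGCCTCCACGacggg
HSP90B1, chr12:103930211-103930239, gene on the plus strand: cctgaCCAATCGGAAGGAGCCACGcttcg
PDIA6, chr2:10812848-10812876, gene on the minus strand: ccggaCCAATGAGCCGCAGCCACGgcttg
XBP1, chr22:28800598-28800626, gene on the minus strand: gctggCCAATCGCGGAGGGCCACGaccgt
HYOU1, element II reversed, chr11:119057269-119057289, gene on the minus strand: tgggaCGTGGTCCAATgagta
HERPUD1, element II, chr16:56932020-56932040, gene on the plus strand: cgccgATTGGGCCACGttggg

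The C/EBP-ATF response element (TGATGNAA, both strands), which ATF4 binds with C/EBP partners, was in 3.62% of all promoters. It was in those of 6 of the 19 ATF4 arm genes (ATF3, ASNS, CHAC1, AARS1, GARS1 and SLC3A2) and in that of HERPUD1. The UPR element (TGACGTGG, in 0.729% of all promoters) was found in HYOU1, where it overlaps a second copy of element II. Of the 39 genes, 14 held a match to any of the 4 elements, and a match is a description of letters in this window. Sites of ATF3, ASNS, CHAC1 and AARS1 are shown, which were picked with their changes in the knockdowns known.
ATF3, chr1:212565211-212565228, gene on the plus strand: caggaTGATGGAAggctg
ASNS, chr7:97872464-97872481, gene on the minus strand: aggcaTGATGAAActtcc
CHAC1, reversed, chr15:40953257-40953274, gene on the plus strand: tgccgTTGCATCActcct
AARS1, reversed, chr16:70289681-70289698, gene on the minus strand: cgcagTTGCATCAgccaa

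Library totals ran from 13198932 (shEZH2 replicate 1) to 20055550 (DMSO replicate 1) expected counts, so that a count of 0 allows up to 0.150 to 0.227 counts per 1000000 (CPM), by counting error only. EZH2 stood at 153 and 181 CPM in control shRNA and at 52.7 and 44.8 CPM in shEZH2. In shE2F1 it was lower than in both control libraries, at 121 and 137 CPM (log2 change -0.37, edgeR adjusted p = 0.0227). E2F1 stood at 143 and 138 CPM in control shRNA and at 26 and 22.5 CPM in shE2F1, and it was also low in shEZH2, at 62.5 and 32.3 CPM. Within the shEZH2 pair, both were lower in replicate 2. Of the fixed line markers, VIM (1281 to 3522 CPM), CD44 (680 to 828 CPM) and AXL (424 to 2136 CPM) were high in every library, ESR1 was at most 0.216 CPM and PGR was at 0 throughout, ERBB2 ran from 46.1 to 90.3 CPM, EPCAM from 10.4 to 33.9 CPM and CDH1 from 0.18 to 9.83 CPM. The leukocyte marker PTPRC (at most 0.645 CPM) and the endothelial marker PECAM1 (at most 1.35 CPM) were near 0. VIM was lower in shEZH2 (1420 and 1281 CPM) than in control shRNA (3217 and 3522 CPM), and AXL was lower in both knockdowns (424 to 678 CPM) than in control shRNA (1939 and 2136 CPM). The part of these shifts in the results below was not tested, and fewer cells of a kind cannot be told apart from less RNA per cell in bulk samples.

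In control shRNA, 3 ER chaperone genes had the highest levels of the 39 genes, while the others of that arm were spread down the order to DNAJB9 at 8.79 TPM. On the TPM scale, which divides by gene length and so allows genes to be compared, the mean level in control shRNA was 521 TPM for HSPA5 (BiP, the main Hsp70 of the ER), 367 TPM for HSP90B1 (GRP94) and 248 TPM for PDIA6, a disulfide isomerase. ATF4 was the highest of its own arm at 225 TPM, ahead of the amino acid transporter subunits SLC3A2 (192 TPM) and SLC7A5 (181 TPM). The sensors were far lower, with ATF6 at 42 TPM, EIF2AK3 at 6.14 TPM and ERN1 at 2.63 TPM. The lowest levels were those of PHGDH, the first enzyme of serine synthesis (1.57 TPM), the secreted glycoprotein gene STC2 (0.78 TPM) and the stress-induced cofactor gene NUPR1 (0.03 TPM). PHGDH rested on 22 and 16 counts in control shRNA and NUPR1 on 2.4 and 1.21. The 3 genes did not overlap with each other on this scale, with PHGDH at 1.66 and 1.48, STC2 at 0.83 and 0.73 and NUPR1 at 0.04 and 0.02 TPM in the control libraries.

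The level in the DMSO libraries was higher than in control shRNA for 35 of the 39 genes, and 31 of these did not overlap between the groups, where 26.5% of all genes were higher in DMSO without overlap. All 12 ER chaperone genes were higher in DMSO without overlap. HSPA5 stood at 1087 and 955 CPM in control shRNA and at 2899 and 2854 CPM in DMSO. The ratio of means was 2.82 for HSPA5, 2.88 for HERPUD1 (which links misfolded proteins to the ER ubiquitin ligase), 3.03 for DNAJB9 (an Hsp40 cofactor of HSPA5) and 3.1 for DDIT4 (an inhibitor of mTORC1). The median ratio was 1.39 over the ATF4 arm, 1.65 over the sensors and XBP1 and 1.52 over the ER chaperones, against 0.998 over 15705 genes. ATF5 (ratio 0.682), SLC7A5 (0.754) and ATF6 (0.883) were lower in DMSO without overlap. The groups came from different experiments, in which virus, puromycin and solvent differed together and cannot be told apart, so that no test was made. Each comparison below stays within 1 experiment, except that of the shEZH2 change with the GSK126 change, which spans both.

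**Figure D1:**
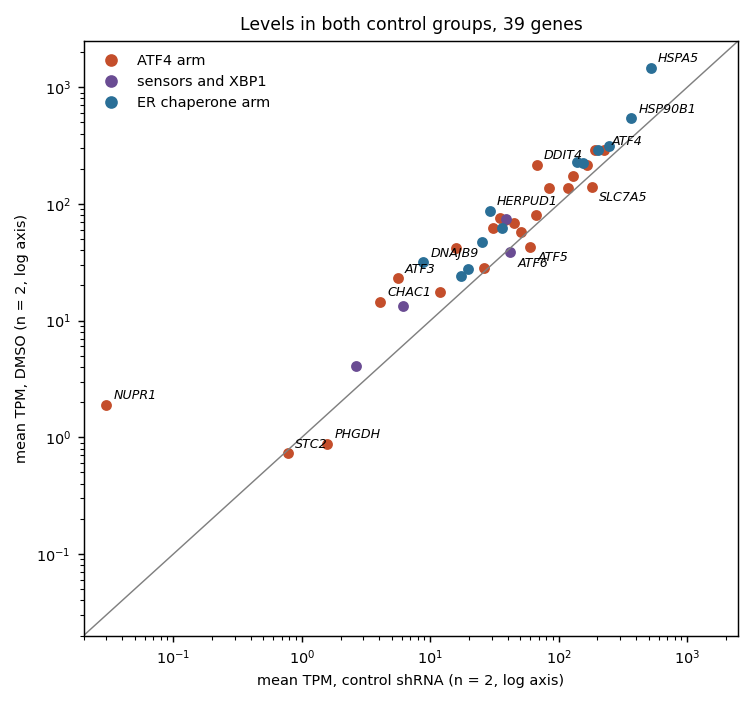
Mean TPM of the 39 genes in control shRNA (horizontal) and in DMSO (vertical), 2 libraries each, both on log axes, with the line of equal level. Nearly all genes lie above the line, with HSPA5 at the top right, while ATF5, SLC7A5, ATF6, PHGDH and STC2 lie below it and NUPR1 rests on 2.4 and 1.21 counts in control shRNA.

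The first comparison asked how the arms stood after depletion of EZH2. ATF3 and STC2 rose most, transcripts of the sensors EIF2AK3 and ERN1 rose, and PDIA4, SHMT2, DDIT3 and PHGDH fell, while the transcript of ATF4 itself changed by 0.00 on the log2 scale. Calls required more than a 2-fold change with an edgeR adjusted p below 0.01, and 9 of the 39 genes were called (5 higher, 4 lower), or 23.1% of them, where 18.2% of all genes tested were called (7.52% higher, 10.7% lower). At the looser threshold of an adjusted p below 0.05, whatever the fold, 24 passed (10 higher, 14 lower), where 55.6% of all genes did (27.0% higher, 28.6% lower). Of the 4 lower calls, those of SHMT2, DDIT3 and PHGDH were lost without shEZH2 replicate 2, and 6 genes were then called (5 higher and PDIA4 lower). PHGDH passed the filter on low counts only through the groups where it was higher, and 8 genes were called without it. Between the groups, 25 did not overlap (10 higher, 15 lower), where 77.4% of all genes did not (38.1% higher, 39.4% lower). Read against these shares, the counts are no result about the 39 genes in particular.

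Within the ATF4 arm the transcription factors differed from each other. ATF4 stood at 190 and 213 CPM in control shRNA and at 195 and 212 CPM in shEZH2, with overlapping groups. ATF3, a stress-induced repressor and activator of the same family (GRCh38 chromosome 1, 212565334 to 212620777), stood at 4.77 and 6.24 CPM in control shRNA and at 41.5 and 50.6 CPM in shEZH2. Both shEZH2 libraries were well above both controls, a log2 change of 3.06 ± 0.16 (SE, edgeR adjusted p = 7.95e-07). DDIT3, the pro-apoptotic factor CHOP, stood at 16 CPM in both control libraries and at 9.34 and 5.42 CPM in shEZH2, a log2 change of -1.15 ± 0.22 (SE, edgeR adjusted p = 0.00125) that was -1.57 without shEZH2 replicate 1 and -0.77, no longer called, without shEZH2 replicate 2. DDIT3 overlaps MARS1 on the opposite strand, which held 2322 counts per library on average against 369 and which changed by -1.20 in shEZH2. Whether counting took the strand into account is not stated, and the part of MARS1 reads in the DDIT3 value was not tested. TRIB3, a pseudokinase that DDIT3 and ATF4 induce, stood at 23.7 and 23.1 CPM in control shRNA and at 24.4 and 23.2 CPM in shEZH2, and CHAC1, which degrades glutathione, stood at 3.23 and 4.5 against 3.32 and 2.48 CPM. Neither passed the looser threshold, and no more did CEBPB and DDIT4. After correction for GC content and gene length, ATF4 (0.38, edgeR adjusted p = 0.0111), TRIB3 (0.52, edgeR adjusted p = 0.00299), CEBPB (0.66, edgeR adjusted p = 0.000733) and DDIT4 (0.52, edgeR adjusted p = 0.0292) passed it and were higher, and CHAC1 turned from -0.44 to 0.08.

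Several enzymes of amino acid synthesis in the ATF4 arm were lower in shEZH2. SHMT2, which makes glycine and one-carbon units in mitochondria, stood at 146 and 165 CPM in control shRNA and at 88.2 and 57.4 CPM in shEZH2, a log2 change of -1.11 ± 0.16 (SE, edgeR adjusted p = 0.000224) that was -0.81, no longer called, without shEZH2 replicate 2. ASNS, asparagine synthetase, stood at 39.8 and 60.4 CPM in control shRNA and at 32.6 and 24.1 CPM in shEZH2 (log2 change -0.84 ± 0.20 SE, edgeR adjusted p = 0.00462). This value was -1.11 without control replicate 1 and -0.51 without control replicate 2. PHGDH stood at 22 and 16 counts in control shRNA and at 1 and 2 counts in shEZH2, so that the pooled level in control shRNA was 10.9 times that in shEZH2 (95% exact counting interval 3.46 to 55.3), and its call was lost without either shEZH2 library. PSPH (-0.90), PSAT1 (-0.66) and MTHFD2 (-0.37), further enzymes of the serine and one-carbon route, also passed the looser threshold and were lower. Of the 3 tRNA synthetases, AARS1 fell by 0.85 and WARS1 by 0.29 on the log2 scale, whereas GARS1 changed by 0.08 with overlapping groups, or by -0.28 after the GC and length correction (edgeR adjusted p = 0.043). Against this, STC2 stood at 1.27 and 0.72 CPM in control shRNA and at 5.65 and 7.14 CPM in shEZH2 (log2 change 2.65 ± 0.32 SE, edgeR adjusted p = 5.98e-05). SLC3A2 (0.69) and PPP1R15A (0.43), the stress-induced subunit of the eIF2alpha phosphatase, passed the looser threshold and were higher. Of the ATF4 arm genes with the C/EBP-ATF element, ATF3 and SLC3A2 were higher and ASNS and AARS1 lower. CHAC1 and GARS1 were not past the threshold without the correction. HERPUD1 of the ER chaperone arm, which also holds the element, changed by 0.00.

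The 3 sensor transcripts all rose in shEZH2. EIF2AK3 (GRCh38 chromosome 2, 88556741 to 88691518) stood at 15.3 and 13.7 CPM in control shRNA and at 33.1 and 33.4 CPM in shEZH2, a log2 change of 1.18 ± 0.12 (SE, edgeR adjusted p = 2.12e-05). ERN1 stood at 8.85 and 13.5 CPM in control shRNA and at 26.9 and 25.8 CPM in shEZH2, a log2 change of 1.23 ± 0.18 (SE, edgeR adjusted p = 0.000197) that was 1.56 without control replicate 2 and 0.95, under 2-fold, without control replicate 1. ATF6 rose by less, from 100 and 110 CPM to 150 and 152 CPM (log2 change 0.51, or 0.20 and not past the threshold after correction for GC content and gene length). XBP1, a target of ATF6 and the substrate of ERN1, stood at 46.7 and 43.6 CPM in control shRNA and at 38.2 and 38 CPM in shEZH2 (log2 change -0.26 ± 0.10 SE, edgeR adjusted p = 0.0468). The sensors and their downstream factor gene thus moved in opposite directions.

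In the ER chaperone arm, PDIA4 fell most. PDIA4, a disulfide isomerase (GRCh38 chromosome 7, 149003062 to 149028662), stood at 383 and 368 CPM in control shRNA and at 130 and 106 CPM in shEZH2, a log2 change of -1.68 ± 0.11 (SE, edgeR adjusted p = 2.12e-06). HYOU1, the ER Hsp110, fell from 399 and 430 CPM to 267 and 214 CPM (log2 change -0.80), and HSPA5 from 1087 and 955 CPM to 680 and 718 CPM (log2 change -0.56). In the other direction, DNAJB9 rose from 14.1 and 14 CPM to 28.5 and 29.4 CPM, a log2 change of 1.03 ± 0.13 (SE, edgeR adjusted p = 9.25e-05). EDEM1, which delivers misfolded glycoproteins to degradation, rose from 78.6 and 82.3 CPM to 124 and 128 CPM (log2 change 0.64), and MANF by 0.32. HERPUD1 stood at 31.7 and 29.7 CPM in control shRNA and at 31.4 and 30.8 CPM in shEZH2. The remaining 5 genes of the arm (HSP90B1, PDIA6, SDF2L1, CRELD2, SEL1L) did not pass, with log2 changes between -0.28 and 0.15. After the GC and length correction, HSP90B1 (-0.39, edgeR adjusted p = 0.0162) and SEL1L (-0.46, edgeR adjusted p = 0.00275) passed and were lower, CRELD2 (0.42, edgeR adjusted p = 0.0332) passed and was higher, and SDF2L1 turned to 0.31 without passing.

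**Figure D2:**
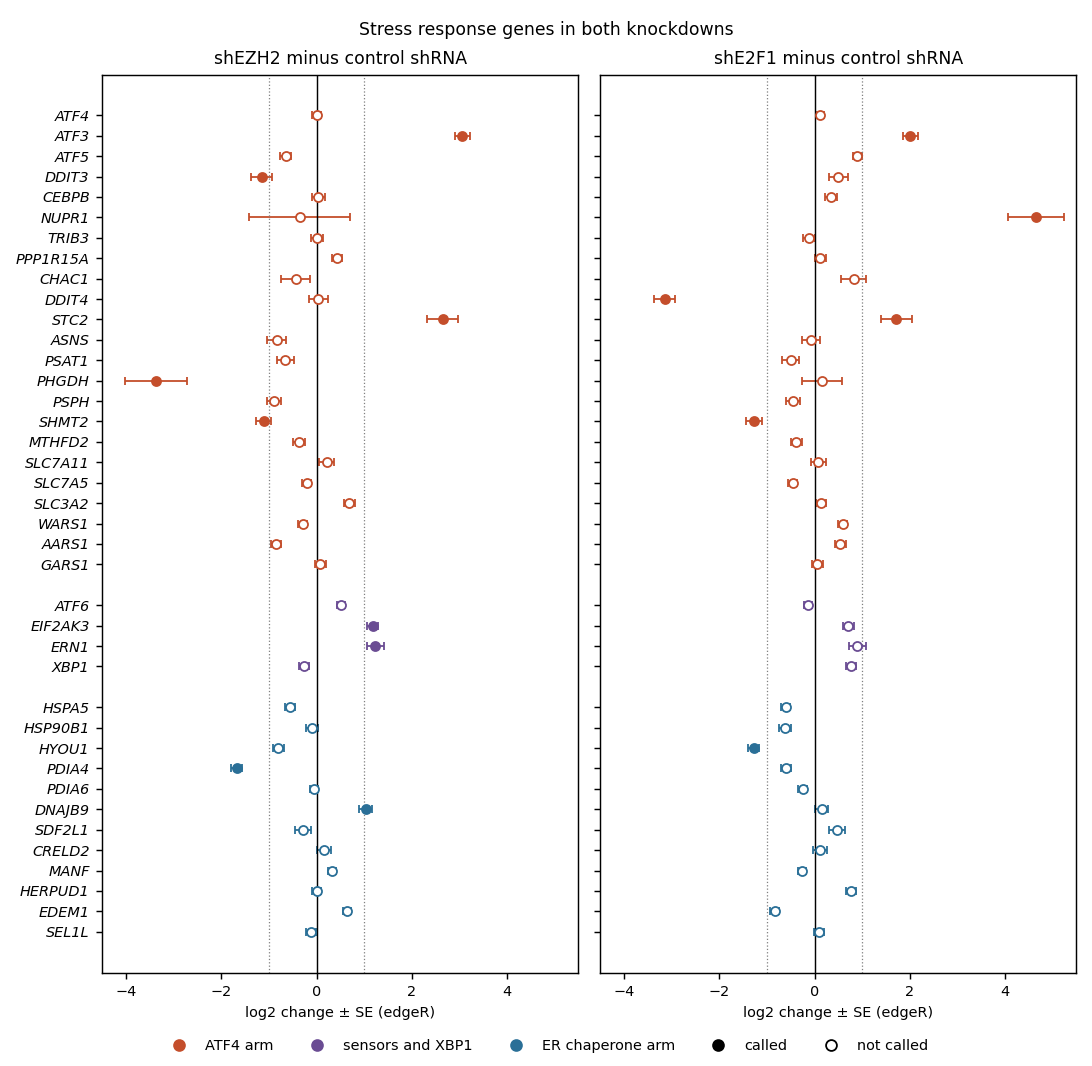
Log2 change (horizontal, with SE, edgeR) of each of the 39 genes in shEZH2 (left) and shE2F1 (right) against control shRNA, in the colour of their arm, with filled points for called genes and dotted lines at a 2-fold change. ATF3 and STC2 are high in both panels, DDIT4 and NUPR1 stand apart in shE2F1, PHGDH and PDIA4 in shEZH2, and the ATF4 point lies near 0 in both.

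Depletion of E2F1 was examined next, in shE2F1 against control shRNA, which shares its control libraries with the comparison above. ATF3, STC2 and NUPR1 rose, and DDIT4, SHMT2 and HYOU1 fell. Of the 39 genes, 6 were called (3 higher, 3 lower), or 15.4%, where 11.6% of all genes tested were called (5.60% higher, 5.96% lower). NUPR1, which passed the filter on low counts only through shE2F1, is 1 of the 6, and 5 genes were called without it (2 higher, 3 lower). At the looser threshold 26 passed (13 higher, 13 lower), where 44.7% of all genes did (21.1% higher, 23.7% lower). Between the groups, 32 did not overlap (17 higher, 15 lower), where 74.2% of all genes did not (37.0% higher, 37.2% lower).

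DDIT4 (GRCh38 chromosome 10, 72273919 to 72276036) showed the steepest fall. It stood at 83.9 and 68.7 CPM in control shRNA, at 8.1 and 9.17 CPM in shE2F1 and at 60.3 and 97.4 CPM in shEZH2. Its log2 change in shE2F1 was -3.15 ± 0.22 (SE, edgeR adjusted p = 2.47e-06), and in shEZH2 its groups overlapped. ATF3 stood at 21.7 and 22.9 CPM in shE2F1, above both control libraries and below both shEZH2 libraries (log2 change 2.01 ± 0.16 SE, edgeR adjusted p = 7e-06). STC2 stood at 3.16 and 3.56 CPM in shE2F1, a log2 change of 1.72 ± 0.33 (SE, edgeR adjusted p = 0.00171) that was 1.39 without control replicate 2, 2.20 without control replicate 1, and no longer called without control replicate 2 or without either shE2F1 library. NUPR1 stood at 55.35 and 36.11 counts in shE2F1 and at 2.4 and 1.21 in control shRNA. Its pooled ratio, from rounded counts, was 27.4 (95% exact counting interval 9.07 to 135, for counting error only) and is given as a description. The posterior SD that RSEM gives for the NUPR1 count was up to 42.4% of the mean.

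ATF5, WARS1 and AARS1 fell in shEZH2 and rose in shE2F1. ATF5, an ATF4-related factor, stood at 70.5 and 77.9 CPM in control shRNA, at 51.1 and 44.1 CPM in shEZH2 (log2 change -0.65) and at 142 and 136 CPM in shE2F1 (log2 change 0.90). AARS1 stood at 101 and 113 CPM in control shRNA, at 65.7 and 53.6 CPM in shEZH2 and at 159 and 153 CPM in shE2F1 (log2 change 0.54), and WARS1 rose by 0.59 in shE2F1. After correction for GC content and gene length the falls of ATF5 (-0.19) and WARS1 (-0.14) in shEZH2 no longer passed. CHAC1 (8.01 and 5.66 CPM, log2 change 0.82) and CEBPB (0.35) also rose in shE2F1 at the looser threshold, and after that correction neither passed. ATF4 stood at 224 and 213 CPM (log2 change 0.11), TRIB3 at 22.5 and 20.9 CPM and ASNS at 43.3 and 52.9 CPM, and none of these passed. DDIT3 stood at 24.5 and 20.8 CPM, above both control libraries, with an edgeR adjusted p of 0.0626. SHMT2 fell in shE2F1 as well, to 66.3 and 63 CPM (log2 change -1.27 ± 0.16 SE, edgeR adjusted p = 0.000131), and so did PSAT1 (-0.50), PSPH (-0.45), MTHFD2 (-0.38) and SLC7A5 (-0.46). PHGDH stood at 20 and 27 counts, beside 22 and 16 in control shRNA.

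Of the sensors and XBP1, 3 rose in shE2F1 and none was called. EIF2AK3 stood at 24 and 23.7 CPM (log2 change 0.71), ERN1 at 21.4 and 20.4 CPM (0.90) and XBP1 at 74.7 and 80.2 CPM (0.77), all above both control libraries. ATF6 stood at 95.6 and 96.4 CPM and did not pass. In the ER chaperone arm 7 genes fell and 2 rose at the looser threshold, where 23.7% of all genes passed lower and 21.1% higher. HYOU1 (GRCh38 chromosome 11, 119044188 to 119057227) fell to 170 and 174 CPM (log2 change -1.28 ± 0.11 SE, edgeR adjusted p = 1.03e-05). EDEM1 (-0.84), HSP90B1 (-0.62), HSPA5 (-0.61) and PDIA4 (-0.60) fell by less than 2-fold, with HSPA5 at 693 and 652 CPM and PDIA4 at 240 and 258 CPM. HERPUD1 rose to 53 and 51.9 CPM (log2 change 0.76) and SDF2L1 by 0.47, or by 0.31, which did not pass, after the GC and length correction (edgeR adjusted p = 0.102). Of the genes with an ER stress response element, HSPA5, HSP90B1 and PDIA6 fell in shE2F1, XBP1 rose and CRELD2 (0.11) did not pass. Of the genes with element II, HYOU1 fell, while HERPUD1 and, without the correction, SDF2L1 rose.

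**Figure D3:**
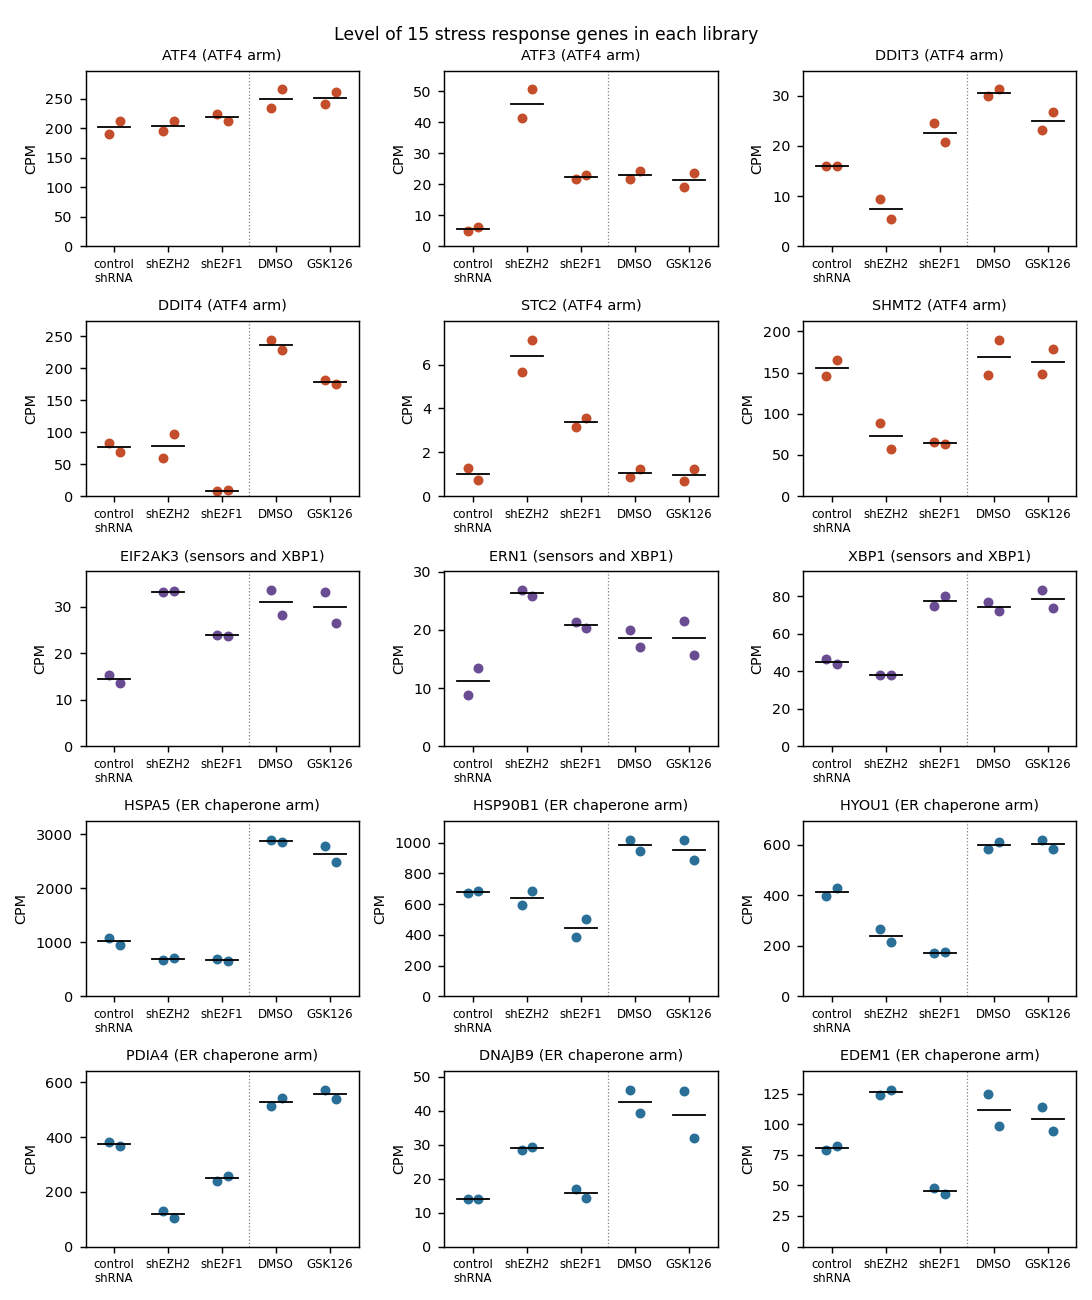
CPM (vertical, TMM-scaled, from 0) of 15 of the genes in each of the 10 libraries, with a point per library, a bar at the mean of each group of 2 and a dotted line between the knockdown and drug experiments. ATF3 is lowest in control shRNA, DDIT4 is lowest in shE2F1, PDIA4 is lowest in shEZH2, and HSPA5 is higher in both drug groups than in the 3 knockdown groups.

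The arms were set against each other by their median log2 change. Over all genes tested, 27.0% passed the looser threshold higher and 28.6% lower in shEZH2, and 21.1% higher and 23.7% lower in shE2F1. In shEZH2 the median was -0.29 over the ATF4 arm (4 passed higher and 10 lower), 0.84 over the sensors and XBP1 (3 higher, 1 lower) and -0.08 over the ER chaperones (3 higher, 3 lower), beside -0.02 over all genes tested. In shE2F1 it was 0.12 over the ATF4 arm (8 higher, 6 lower), 0.74 over the sensors and XBP1 (3 higher, 0 lower) and -0.26 over the ER chaperones (2 higher, 7 lower), beside 0.00 over all genes. The ATF4 arm minus the ER chaperone arm was thus -0.21 in shEZH2 and 0.38 in shE2F1, where the difference between replicates gave a spread of 0.17 and 0.14 (SD). In shEZH2 it ran from -0.30 to -0.11 on leaving out 1 library and was -0.14 with a filter at 50 counts on average, and in shE2F1 it ran from 0.30 to 0.50 on leaving out 1 library. Without NUPR1 and PHGDH, which rest on few counts, the ATF4 arm median was -0.21 in shEZH2 and 0.11 in shE2F1. Library by library, the ATF4 arm stood at -0.21 and -0.31 in shEZH2 and at 0.15 and 0.10 in shE2F1, against -0.07 and 0.07 in control shRNA. The ER chaperone arm stood at -0.06 and -0.01 in shEZH2 and at -0.27 and -0.24 in shE2F1, and the sensors with XBP1 stood between 0.72 and 0.85 in all 4 knockdown libraries. Different genes made up that median, with XBP1 lower in shEZH2 (-0.26) and ATF6 not past the threshold in shE2F1 (-0.14). GC content of the genes moved with the shEZH2 values (r = -0.239 over 15366 genes, a description over genes of the same libraries, beside -0.0182 for shE2F1). After correction for GC content and gene length, 29 of the 39 genes passed the looser threshold in shEZH2 (14 higher, 15 lower). Over all genes, 8316 of 15373 then passed (4153 higher, 4163 lower). Of the 29, 8 had not passed before the correction. The 3 genes that had passed but no longer did were ATF5, WARS1 and ATF6. The ATF4 arm then held 8 higher and 9 lower genes with a median of -0.19, and the ER chaperone arm 4 higher and 5 lower with a median of -0.02. The sensors and XBP1 held 2 higher and 1 lower with a median of 0.62. SHMT2 (-0.79) and DNAJB9 (0.94) were then no longer past 2-fold.

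**Figure D4:**
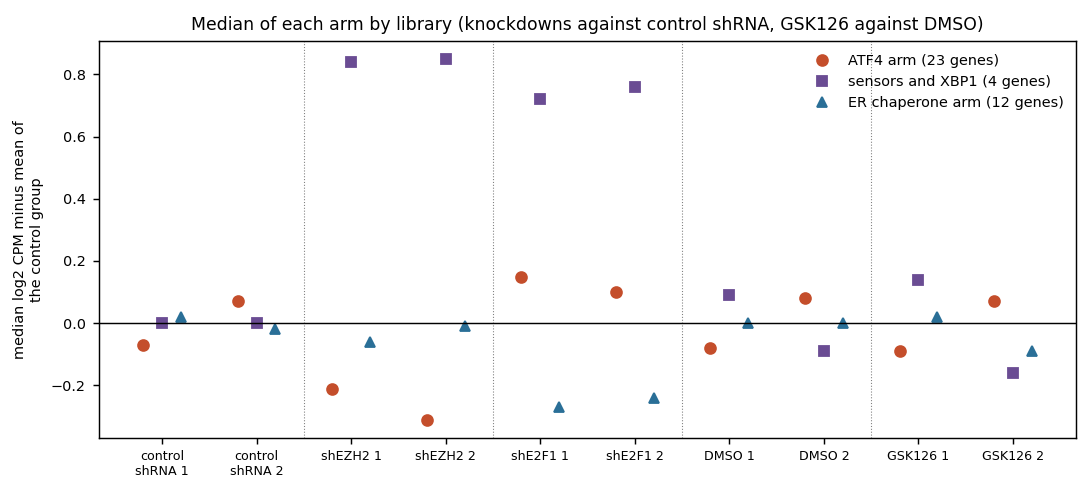
Median over the genes of each arm of log2 CPM minus the mean of the control group (vertical), by library, with control shRNA as the control of the knockdowns and DMSO as that of GSK126. The sensors with XBP1 stand between 0.72 and 0.85 in the 4 knockdown libraries, the ATF4 arm is below 0 in shEZH2 and above it in shE2F1, and both GSK126 libraries stand within 0.16 of 0.

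The direct comparison of the knockdowns tested which genes differed between shEZH2 and shE2F1, with no control library in the contrast. Of the 39 genes, 11 were called (3 higher and 8 lower in shEZH2), or 28.2%, where 23.3% of all genes were called (10.4% higher, 12.9% lower). NUPR1 and PHGDH passed the filter on low counts only through groups where they were higher than in shEZH2, and 9 genes were called without them. At the looser threshold 25 passed (12 higher, 13 lower), where 60.3% of all genes did (29.7% higher, 30.6% lower), and 32 did not overlap (16 higher, 16 lower), where 82.6% of all genes did not (40.2% higher, 42.3% lower). In the ATF4 arm, DDIT4 (3.19 ± 0.22 SE, edgeR adjusted p = 8.99e-07) and ATF3 (1.05) were higher in shEZH2. ATF5 (-1.55), DDIT3 (-1.65), AARS1 (-1.40 ± 0.11 SE, edgeR adjusted p = 2.8e-06) and CHAC1 (-1.26) were lower in shEZH2, and PHGDH stood 12.2 times higher in shE2F1 as a pooled ratio (95% exact counting interval 3.92 to 61.2). NUPR1 stood at 1 count in each shEZH2 library beside 55.35 and 36.11 in shE2F1, which is given as a description. ATF5 overlaps NUP62 on the opposite strand, which held 3036 counts per library on average against 1310. Outside the arm, EDEM1 was higher in shEZH2 (1.48 ± 0.10 SE, edgeR adjusted p = 7.03e-07), with 124 and 128 CPM against 47.7 and 42.7 CPM. XBP1 (-1.03 ± 0.10 SE, edgeR adjusted p = 8.16e-06) and PDIA4 (-1.08 ± 0.11 SE, edgeR adjusted p = 1.24e-05) were lower in shEZH2. After the GC and length correction, CHAC1 (-0.62), XBP1 (-0.92) and PDIA4 (-0.89) were no longer called. CEBPB then turned from -0.31 to 0.43 (edgeR adjusted p = 0.00922), ATF4 from -0.11 to 0.33 (edgeR adjusted p = 0.02) and GARS1 from 0.02 to -0.35 (edgeR adjusted p = 0.0132), and SDF2L1 went from -0.75 to -0.00. Without shEZH2 replicate 2, ATF3 was at 0.90, PDIA4 at -0.93 and CHAC1 at -1.04 and none of the 3 was called, and the same held for CHAC1 (-0.98) without shE2F1 replicate 1 and for XBP1 (-0.97) without shE2F1 replicate 2. The median was -0.11 over the ATF4 arm, or 0.01 without NUPR1 and PHGDH, and 0.12 over the ER chaperones.

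The comparison of GSK126 with DMSO asked what the inhibitor of EZH2 did to these genes. None of the 39 genes was called and none passed an adjusted p of 0.05 in edgeR, where 0 (0%) of 14632 genes did. At an unadjusted p under 0.05 in edgeR stood 1 of the 39 genes (DDIT4) and 577 of all genes. DESeq2 called 0 of the 39 genes and 11 of all genes, with 290 of all genes at an unadjusted p under 0.05. Medians were -0.05 over the ATF4 arm, -0.02 over the sensors and XBP1 and -0.03 over the ER chaperones, and 6 genes did not overlap between the groups (1 higher, 5 lower), or 15.4%, where 28.4% of all genes did not (15.3% higher, 13.1% lower). ATF4 had 234 and 266 CPM with DMSO and 241 and 261 CPM with GSK126. HSPA5, at 2899 and 2854 CPM with DMSO, was lower in both GSK126 libraries, at 2786 and 2480 CPM. The same held for DDIT3 and DDIT4, whose values are given with the replicate block. AARS1 was also lower without overlap, at 150 and 166 CPM with DMSO and at 149 and 145 CPM with GSK126. Among genes whose groups overlapped, TRIB3 stood at 53.5 and 68.9 against 56.3 and 59.1 CPM, and ASNS at 85.2 and 100 against 93.7 and 92.9 CPM. CHAC1, with overlap as well, stood at 12.4 and 13.6 against 11.7 and 15.3 CPM. So did XBP1 at 76.7 and 72 against 83.4 and 73.7 CPM, and HERPUD1 at 91.6 and 85.6 against 88.2 and 77.5 CPM.

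Libraries with the same replicate number deviated together in the drug experiment (r = 0.698 over 11907 genes), so that the fit with the replicate number as a block is given beside the result, although the labels do not say what a replicate number shares. With the block, which leaves 1 residual degree of freedom, 0 of the 39 genes were called, where 0.465% of all genes were, and 7 passed an adjusted p of 0.05, or 17.9% (2 higher, 5 lower), where 13.6% of all genes did (6.30% higher, 7.30% lower). DDIT4 had 245 and 228 CPM with DMSO and 182 and 175 CPM with GSK126, which is -0.43 in replicate 1 and -0.38 in replicate 2 on the log2 scale (blocked log2 change -0.41 ± 0.04 SE, edgeR adjusted p = 6.41e-11). DDIT3 had 30 and 31.3 CPM with DMSO and 23.2 and 26.8 CPM with GSK126 (blocked log2 change -0.30 ± 0.08 SE, edgeR adjusted p = 0.00845). HSPA5 (-0.13), SEL1L (-0.14) and SLC7A11 (-0.16) were lower with the block, and CEBPB (0.15) and PDIA6 (0.09) higher. In replicates 1 and 2 the differences were -0.06 and -0.20 for HSPA5, -0.10 and -0.19 for SEL1L, and -0.06 and -0.27 for SLC7A11. They were 0.30 and 0.01 for CEBPB and 0.16 and 0.02 for PDIA6. Every one of these 7 changes was under 2-fold.

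**Figure D5:**
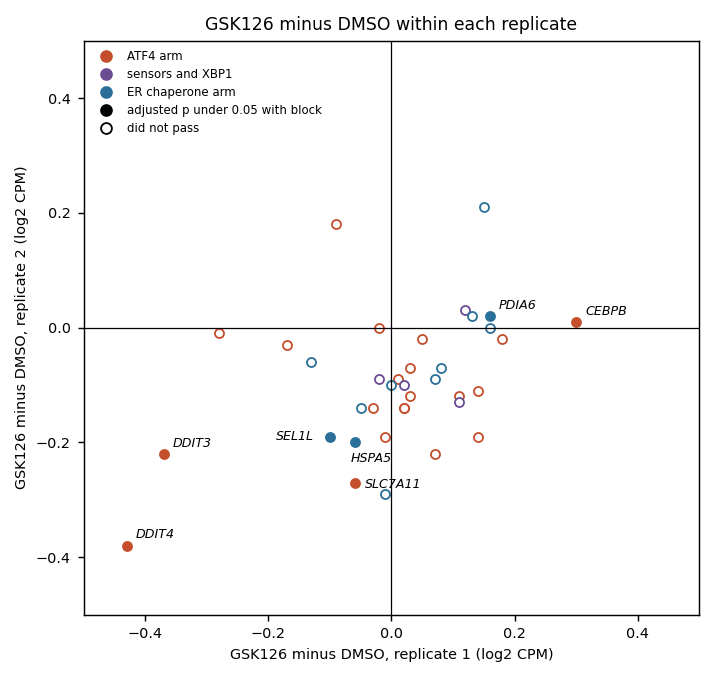
GSK126 minus DMSO in log2 CPM within replicate 1 (horizontal) and within replicate 2 (vertical) for each gene, in the colour of its arm, with filled points for genes at an adjusted p under 0.05 with the replicate as a block. DDIT4 (-0.43 and -0.38) lies lowest in both replicates, DDIT3 stands at -0.37 and -0.22, and NUPR1 and PHGDH, which rest on few counts, are left out.

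Depletion and inhibition of EZH2 were compared by testing the shEZH2 change minus the GSK126 change in a fit of all 10 libraries. Of the 39 genes, 8 were called (5 higher, 3 lower), or 20.5%, where 13.8% of all genes were called (5.13% higher, 8.67% lower). PHGDH passed the filter on low counts only through groups where it was higher than in shEZH2, and 7 genes were called without it (5 higher, 2 lower). At the looser threshold 18 passed (8 higher, 10 lower), where 36.6% of all genes did (16.9% higher, 19.7% lower). The difference was 3.17 ± 0.24 (SE, edgeR adjusted p = 8.23e-06) for ATF3, which had 21.6 and 24.2 CPM with DMSO and 19.2 and 23.7 CPM with GSK126. It was -1.75 ± 0.16 (SE, edgeR adjusted p = 2.53e-05) for PDIA4, which had 512 and 541 CPM with DMSO and 572 and 540 CPM with GSK126. EIF2AK3 differed by 1.24 ± 0.20 (SE, edgeR adjusted p = 0.000728), from 33.7 and 28.3 CPM with DMSO and 33.3 and 26.6 CPM with GSK126. STC2, ERN1 and DNAJB9 were also higher and SHMT2 and PHGDH lower in this contrast. Only 3 genes were called without shEZH2 replicate 2, and 5 without GSK126 replicate 2. Knockdown and inhibitor also differ in virus, selection and the level at which the control cells stood, which cannot be told apart from depletion against inhibition.

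Other genes of the pathway were read from 7 lists, which were drawn up with earlier results of these data known. Beside their counts in shEZH2 stand the shares of all genes, of which 18.2% were called (7.52% higher, 10.7% lower) and 55.6% passed the looser threshold (27.0% higher, 28.6% lower). Of the 17 further cytosolic tRNA synthetases, 5 were called in shEZH2 and all 5 were lower, with FARSB at -1.43, QARS1 at -1.40, VARS1 at -1.32 and MARS1 at -1.20, and 9 passed (1 higher, 8 lower). After the GC and length correction VARS1 (-0.91) and FARSA (-0.53) were under 2-fold and 3 were called, where 2497 of 15373 genes were. In shE2F1, where 11.6% of all genes were called, only IARS1 was called (-1.31). Of 18 tested genes related to ATF4 and CHOP, 3 were called higher and 3 lower in shEZH2, and 14 passed (10 higher, 4 lower), with a median of 0.34. The ATF4 arm, at 4 higher and 10 lower with a median of -0.29, lay on the other side of 0. After the GC and length correction the counts were closer, with 7 higher and 5 lower of the 18 genes (median 0.21). The ATF4 arm then had 8 higher and 9 lower (median -0.19). PYCR1, the last enzyme of proline synthesis, stood at 77 and 88 CPM in control shRNA, at 17.2 and 19.1 CPM in shEZH2 and at 99.9 and 113 CPM in shE2F1 (log2 change -2.19 in shEZH2). GDF15, a secreted stress factor, stood at 4.77 and 3.18 CPM in control shRNA and at 0.754 and 0.23 CPM in shEZH2 (log2 change -3.10), while CEBPG (1.11, or 0.99 and under 2-fold after the GC and length correction), a partner of ATF4, and GPT2 (1.08) rose. In shE2F1, 2 of these genes rose (KLHL24 at 1.28, BBC3 at 1.11) and 2 fell (VEGFA and MTHFD1L, both at -1.28).

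Of 7 genes listed for eIF2alpha, its other kinases and its phosphatase, 1 was called in shEZH2 and 4 passed (2 higher, 2 lower), with a median of 0.12. Over all genes, 18.2% were called and 55.6% passed. The called gene was EIF2AK4 (GCN2, the sensor of uncharged tRNA), a kinase outside the ER, which rose by 1.02. EIF2AK3 of the ER was called in shEZH2 as well. After the GC and length correction EIF2AK4 (0.89) was under 2-fold and not called. Of 29 further ER folding and degradation genes, 4 were called lower and 0 higher in shEZH2, where 15 passed an adjusted p of 0.05 (5 higher, 10 lower). MBTPS1, the protease that makes the first cut in ATF6, stood at 130 and 112 CPM in control shRNA and at 48.8 and 38.7 CPM in shEZH2 (log2 change -1.49), and MBTPS2, which makes the second cut, changed by -1.06. CREB3 (-1.27) and EDEM2 (-1.05) were the other 2, and after the GC and length correction they (-0.90 and -0.75) were under 2-fold and not called. Transcripts of both proteases that activate ATF6 were lower in shEZH2, where that of ATF6 passed and was higher only without the GC and length correction. In shE2F1 none of the 29 was called by edgeR and 17 passed (7 higher, 10 lower). Over all genes, 11.6% were called there and 44.7% passed (21.1% higher, 23.7% lower).

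Lists of chaperones in other compartments served as a comparison with the ER arm. Of 12 cytosolic heat shock genes, 10 passed in shEZH2 and all 10 were lower, with 1 called (HSPB1 at -1.02, or -0.43 after the GC and length correction) and a median of -0.42, where 28.6% of all genes passed and were lower. After that correction 8 passed (1 higher, 7 lower), with a median of -0.28, where 8316 of 15373 genes passed (4153 higher, 4163 lower). In shE2F1, where 44.7% of all genes passed, 8 of the 12 passed (2 higher, 6 lower), with a median of -0.18. Of 7 mitochondrial chaperones and proteases, 4 passed in shEZH2 and all 4 were lower, with DNAJA3 called at -1.13, or -0.99 and not called after the GC and length correction. Of 8 amino acid transporters outside the ATF4 arm, none was called in either knockdown, and 6 passed in shEZH2 (2 higher, 4 lower) and 5 in shE2F1 (2 higher, 3 lower). No gene of these 7 lists passed in GSK126 by edgeR without the block, as none did over all genes.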

How the data were processed

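The authors mapped reads with STAR to hg38 (Ensembl annotation) and estimated abundance with RSEM (STAR 2.7.2b and RSEM 1.3.1 per the submitters' processing notes). Whether counting used strand is not stated. Of 18 records, 8 repeated another value for value and were used once. The deposited expected counts, which divide reads shared between genes, were rounded for tests. Deposited TPM, scaled by length and library by the authors, served for levels between genes, and the deposited FPKM, lengths and posterior mean counts and SDs for checks. GENCODE 44 (GRCh38) held 62625 (99.9%) of the identifiers.

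Tests used edgeR 4.0.16 (R 4.3.3) with filterByExpr, TMM and the quasi-likelihood F-test, and p-values were adjusted across every gene tested (Benjamini-Hochberg). One fit held the 6 knockdown libraries, another the 4 drug libraries, and the interaction used all 10. Thresholds were those of the study, which used DESeq2 (1.42.0, an alternative here). Counts of at most 3 over a group were given as ratios with Clopper-Pearson intervals, for counting error only. The pipeline was tested on simulated data.

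The members, arms and lists were chosen with earlier results of these data known. Values per library were given for called members, hairpin targets and the anchors ATF4, DDIT3, TRIB3, ASNS, CHAC1, XBP1, HSPA5 and HERPUD1, and at most 4 called genes were named per pathway list. Deviations of same-numbered replicates correlated at 0.698 in the drug groups and at 0.0307 to 0.205 in the knockdown groups. Alternatives were DESeq2 and its size factors, 2 filters, the block, a spline correction for GC content and length, other sets of libraries, a looser threshold and leaving out each library.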

Additional observations from a re-analysis of the deposited data

Results flagged for a closer look

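For 8 of the 39 genes the change in shEZH2 differed from the change in GSK126 by the interaction test (edgeR, adjusted p under 0.01 and more than 2-fold). Over all genes tested, 13.8% were called in this contrast (5.13% higher, 8.67% lower). The difference in log2 change was 3.17 for ATF3, 2.77 for STC2, 1.24 for EIF2AK3, 1.24 for ERN1 and 1.18 for DNAJB9, all higher in shEZH2, and -3.90 for PHGDH, -1.75 for PDIA4 and -1.06 for SHMT2. The value of PHGDH is a fitted change that rests on 1 and 2 counts in shEZH2. After correction for GC content and gene length SHMT2 differed by -0.71 and was not called.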

How the results depend on the processing

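No call among the 39 genes changed with DESeq2, with DESeq2 scaling in edgeR, with other sets of libraries, when low counts were kept, or with the replicate block (9, 6, 11, 0 and 8 calls with the block in shEZH2, shE2F1, the direct comparison, GSK126 and the interaction). When genes needed 50 counts on average, PHGDH and NUPR1 left the knockdown fits and PHGDH and STC2 the interaction, with their calls. At the looser threshold of an adjusted p below 0.05, whatever the fold, 24, 26, 25 and 18 genes passed in shEZH2, shE2F1, the direct comparison and the interaction. The ATF4 arm minus the ER chaperone arm was 0.52 in shE2F1 with the GC and length correction and the replicate block. In the direct comparison it was -0.50 with that correction, with or without the block, and ran from -0.38 to -0.11 on leaving out 1 library. The interaction called 3 to 8 genes on leaving out 1 library.

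With the GC and length correction, direction turned for 5 of the 39 genes in shEZH2, 6 in the direct comparison, 8 in the interaction, 3 in GSK126 and 0 in shE2F1. None of these had passed an adjusted p of 0.05 before it, and 1, 3, 1 and 0 of them passed after it. In shEZH2, with no filter on low counts, ATF4 and TRIB3 were at -0.00 and HERPUD1 at -0.01, and CHAC1 was at 0.08 with the GC and length correction, with or without the block. On leaving out 1 library, ATF4 ran from -0.08 to 0.09, TRIB3 from -0.03 to 0.06 and HERPUD1 from -0.04 to 0.05 in shEZH2, ASNS from -0.34 to 0.27 in shE2F1, and CEBPB from -0.04 to 0.35 and SEL1L from -0.30 to 0.01 in GSK126. The cause was not tested. Of the values of single genes, 458 of 475 kept their direction and side of the threshold with every library kept, and 213 of 256 on leaving out 1 library. With 2 libraries a group, a library left out leaves 1, which is assumed to vary like the others.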
